A study of Mus musculus with 12 samples.

Results

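The Trav10 and Trav16 families are small groups of T cell receptor alpha variable genes, and they were followed here through every alpha chain (TRAC) clonotype listed for CD8 T cells of tumor-bearing mice. A clonotype was 1 combination of V assignment, J gene and CDR3 nucleotide sequence in 1 library. Members were all TRAC clonotypes whose V assignment began with a Trav10 or a Trav16 gene. This gave 20428 Trav10 clonotypes and 23139 Trav16 clonotypes, or 43567 of 509702 TRAC clonotypes and of 1502315 clonotypes of all chains. The choice used the gene name alone and no count.

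The study set BF10, a fusion of an antibody against CSF1R with IL-10, beside its components in wild-type mice that bore tumors of Q1-2, a mouse head and neck squamous cell carcinoma line. Mice received control IgG, IL10-Fc, anti-CSF1R or BF10 at an equivalent dose of 30 mg/kg, 3 times with 3 days between doses. CD8 T cells were taken with magnetic beads from tumor, spleen and tumor-draining lymph node (tdLN), which gave 12 libraries, 1 per tissue and treatment. Each library mixed the RNA of 3 mice, so no treatment was replicated, and a clone of 1 mouse cannot be told apart from a change in all 3. The titles of the tdLN libraries do not repeat CD8, and no receptor gene in these files marks CD8 T cells, so the cell type was taken from the labels.

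The libraries held 23650 to 137078 TRAC UMIs, the molecular tags counted in place of reads, and 2430 to 63371 TRAC clonotypes. The tumor library of anti-CSF1R was the smallest on both counts. The tdLN libraries of anti-CSF1R and BF10 stood apart from the rest: they held 0.312 and 0.274 TRAC UMIs per beta chain (TRBC) UMI, and 8.31% and 6.49% of their TRAC UMIs had at least 7 reads, against 30.8% to 73.3% in the other 10 libraries. Shares between tissues were also computed without these 2 tdLN libraries, and J partners, CDR3 measures, sharing and clonotype sizes without the anti-CSF1R tumor library. Intervals on shares are 95% Wilson intervals that cover counting error only, and the smallest share taken as measurable, 3 UMIs, lay between 0.00219% and 0.0127% of TRAC UMIs.

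The alpha chain of a T cell receptor is built in the thymus by joining 1 V gene to 1 J gene, with loss of bases at both ends and addition of random bases between them. The joint encodes CDR3, the loop that lies over the peptide held by the MHC molecule, while CDR1 and CDR2 are fixed by the V gene. The same alpha locus can rearrange again, from the V genes nearest to the J cluster outward and from the J genes nearest to the V cluster toward the constant gene. In C57BL/6 mice the middle of the V cluster is copied in tandem, and the copies of a gene carry the suffixes d and n.

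Each family has 3 copies on the plus strand of chromosome 14 in GRCm38, the mm10 build, and the germline ends of the V exons are shown because they set the start of every CDR3 of the family. Trav10d, Trav10n and Trav10 end at chr14:52811484-52811503, chr14:53122598-53122617 and chr14:53506274-53506293, and Trav16d-dv11, Trav16n and Trav16 at chr14:53047805-53047828, chr14:53351605-53351628 and chr14:53743689-53743712. Within a family the 3 copies have the same letters there. Lower case gives the part of the exon from the conserved cysteine codon onward, and capitals give the heptamer of the recombination signal that follows it in the intergenic DNA.
Trav10, Trav10d and Trav10n: tgtgcagcaagcaCACACTG
Trav16, Trav16d-dv11 and Trav16n: tgtgctatgagagagggCACAGTG
The Trav10 exon gives CDR3 up to 13 bases, which read CAAS when 12 are kept. The Trav16 exon gives it up to 17 bases, which read CAMRE when 15 are kept. The copies of a family are 98.3% to 99.3% identical over the V exon, differing at 2 to 5 bases, and the Trav10 and Trav16 exons are 58.5% identical.

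With copies this alike, the assignment often named more than 1 gene. Trav10 alone, the copy nearest to the J genes, took 63.3% of the clonotypes of its family, with 59.9% to 66.5% in single libraries. Trav10d or Trav10n unresolved took 14.8%, Trav10n alone 14.3% and all 3 copies unresolved 5.98%. Trav10d was never listed by itself. Another 328 clonotypes were assigned to Trav10 or Trav10n, and 2 named genes of other families as well. In the Trav16 family the nearest copy was the lesser one: Trav16 alone took 16.6%, against 43.4% for Trav16d-dv11 or Trav16n unresolved and 39.7% for Trav16n alone. Trav16d-dv11 alone had 67 clonotypes, and 5 clonotypes named Trav16 together with another copy. Reads from copies that differ at so few bases may be split unevenly between these assignments, so the families as wholes are firmer than their copies.

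The Trav10 family had a larger share in every tdLN library than in any spleen library, and the Trav16 family a smaller one. Neither difference passed adjustment over all families. In spleens, Trav10 took 3.64% of TRAC clonotypes in control IgG (interval 3.48% to 3.80%), 3.59% in IL10-Fc, 3.44% in anti-CSF1R and 3.70% in BF10. In tdLNs it took 4.40% in control IgG (4.21% to 4.59%), 4.12% in IL10-Fc, 5.37% in anti-CSF1R and 5.28% in BF10. All 4 tdLN libraries lay above all 4 spleen libraries. The means were 4.79% ± 0.626 (SD, n = 4) and 3.59% ± 0.109 (SD, n = 4), a ratio of 1.33 (exact permutation test over libraries, two-sided p = 0.0286, adjusted p = 0.100).

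The Trav16 family differed in the opposite sense. It took 4.80% of TRAC clonotypes in the control IgG spleen, 5.04% in IL10-Fc, 4.50% in anti-CSF1R and 4.88% in BF10. In the tdLNs it took 3.68% in control IgG, 3.67% in IL10-Fc, 4.05% in anti-CSF1R and 4.16% in BF10. All 4 tdLN libraries lay below all 4 spleen libraries, with means of 3.89% ± 0.251 and 4.80% ± 0.227 (SD, n = 4 each) and a ratio of 0.810 (exact permutation test, two-sided p = 0.0286, adjusted p = 0.100). In this exact permutation test p = 0.0286 is the smallest that 4 libraries against 4 can give. Over the 63 tests of 21 families and 3 pairs of tissues, 0% of families reached an adjusted p under 0.05 in any pair, by clonotypes or by UMIs. Spleen and tdLN did not overlap in 42.9% of families (9 of 21), which are also those with an unadjusted p under 0.05, so that such separation was common. In the ratio of tdLN to spleen, Trav10 stood at 3 and Trav16 at 16 of 21, counted from the highest. The 4 libraries of a tissue differ in treatment, so their spread holds treatment and library together.

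The tdLN values were highest for Trav10 in the 2 libraries of low read depth. Without them, the difference of tdLN over spleen was 0.664 percentage points in place of 1.2 for Trav10. For Trav16 it was -1.13 in place of -0.913 (exact permutation test, two-sided p = 0.0667, adjusted p = 0.233 for both). This p is the smallest that 2 libraries against 4 can give, so the adjusted p cannot be set beside that of all libraries. Leaving out libraries cannot make groups that lie apart overlap, so the ranges say nothing more here. The part of read depth in these differences was not tested. By UMIs the picture was the same: Trav10 held 4.00% to 4.18% of TRAC UMIs in spleens and 4.84% to 5.96% in tdLNs, and Trav16 held 4.67% to 5.75% and 3.77% to 4.25%. Neither pair of ranges overlapped, as for 47.6% of families by this measure (exact permutation test, adjusted p = 0.120 for both).

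**Figure D1:**
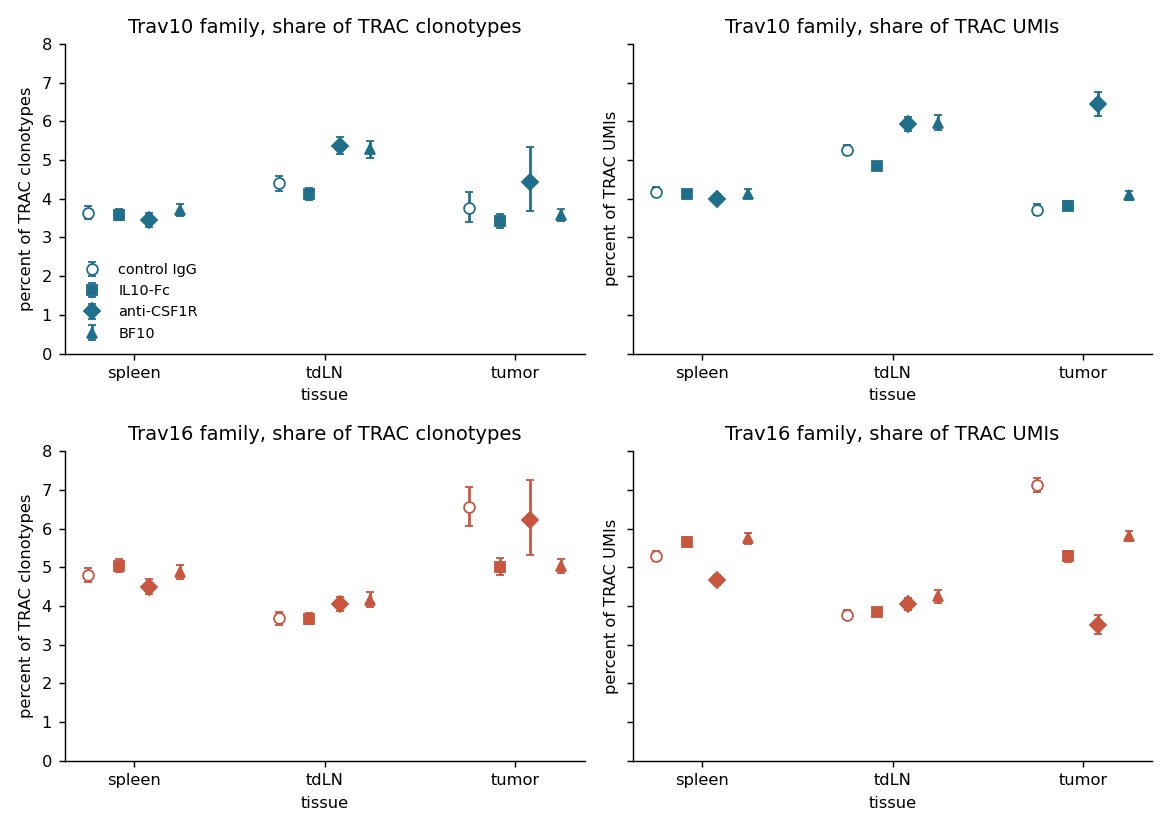
Share of the Trav10 family (upper panels) and the Trav16 family (lower panels) in percent of TRAC clonotypes (left) and of TRAC UMIs (right), 1 point per library with its 95% Wilson interval, symbols by treatment. The 4 tdLN points of Trav10 lie above and those of Trav16 below the spleen points, while the tumor points spread widely by UMIs, from 3.51% to 7.12% for Trav16.

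In tumors Trav10 took 3.76% of TRAC clonotypes in the control IgG tumors, 3.42% in IL10-Fc, 4.44% in anti-CSF1R (interval 3.69% to 5.34%, from 108 clonotypes) and 3.58% in BF10. In the same tumors Trav16 took 6.56% in control IgG (6.08% to 7.08%), 5.02% in IL10-Fc, 6.21% in anti-CSF1R (5.32% to 7.24%, from 151 clonotypes) and 5.04% in BF10. Every tumor value of Trav16 was above every tdLN value, with a ratio of means of 1.47 (exact permutation test, two-sided p = 0.0286, adjusted p = 0.100), which 42.9% of families also showed in one direction or the other. No family separated tumor from spleen by clonotypes (0%). Trav10 overlapped there (3.8% ± 0.451 against 3.59% ± 0.109, adjusted p = 0.633, exact permutation test), as did Trav16 (5.71% ± 0.797 against 4.80% ± 0.227, adjusted p = 0.129, exact permutation test). By UMIs 4.76% of families separated tumor from spleen and 19% tumor from tdLN, and neither Trav10 nor Trav16 was among them.

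Against control IgG tumors, no treatment moved either family by 1.5-fold or more in its share of clonotypes. This is a comparison of single libraries with no replicate and no test. For Trav16 the ratio to control IgG was 0.765 in IL10-Fc (counting interval 0.701 to 0.835) and 0.768 in BF10 (0.706 to 0.836), and 0.947 in anti-CSF1R (0.798 to 1.13). For Trav10 it was 0.909 in IL10-Fc (0.810 to 1.02), 0.953 in BF10 (0.853 to 1.06) and 1.18 in anti-CSF1R (0.958 to 1.46). Among all 21 families, 9.52% moved by 1.5-fold or more in IL10-Fc, 4.76% in BF10 and 19% in anti-CSF1R. In spleens and tdLNs the ratios of the 2 families to control IgG lay between 0.883 and 1.22 by clonotypes or UMIs, where 0% to 4.76% of families in spleens and 0% to 14.3% in tdLNs moved by 1.5-fold or more.

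Shares of UMIs in tumors varied more than shares of clonotypes, and a few large clonotypes held much of them. Trav10 held 3.72% of TRAC UMIs in control IgG, 3.82% in IL10-Fc, 6.44% in anti-CSF1R and 4.08% in BF10. The anti-CSF1R value was 1.73 times that of control IgG (counting interval 1.63 to 1.84), in a comparison where 47.6% of families moved by 1.5-fold or more, as 42.9% did in IL10-Fc and 52.4% in BF10. Of its 1523 Trav10 UMIs, 901 belonged to 1 clonotype, and without the largest clonotype of each library the share was 2.73% in anti-CSF1R and 3.05% to 4.05% in the other tumors. Trav16 held 7.12% in control IgG, 5.28% in IL10-Fc, 3.51% in anti-CSF1R and 5.80% in BF10, so that anti-CSF1R had 0.494 times the share of control IgG. Without the largest clonotype the control IgG tumor share of Trav16 was 5.51%.

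The largest tumor clonotypes are printed because they set these UMI shares. Capitals mark the bases of CDR3 that match neither the germline V end nor the germline J end.
Trav10-Traj30, anti-CSF1R tumor (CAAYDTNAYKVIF): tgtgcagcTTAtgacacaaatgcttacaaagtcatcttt
Trav10-Traj21, control IgG tumor (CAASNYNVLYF): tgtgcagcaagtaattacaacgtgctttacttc
Trav16n-Traj48, control IgG tumor (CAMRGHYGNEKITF): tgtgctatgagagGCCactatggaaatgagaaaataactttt
Trav16n-Traj13, IL10-Fc tumor (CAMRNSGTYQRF): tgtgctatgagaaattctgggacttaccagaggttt
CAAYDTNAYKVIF made up 3.81% of TRAC UMIs of the anti-CSF1R tumors (interval 3.57% to 4.06%) and 59.2% of the Trav10 UMIs there. It was listed in 1 other library, the tdLN of the same treatment, with 14 UMIs. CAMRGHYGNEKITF had 1364 UMIs, or 1.71% of TRAC UMIs (1.62% to 1.80%), in the control IgG tumors and was listed nowhere else. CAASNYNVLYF had 552 UMIs in the same tumors and a single UMI in each of 2 other libraries, the BF10 tumor and the IL10-Fc tdLN. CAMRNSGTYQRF had 122 UMIs in the IL10-Fc tumors and 18 in the IL10-Fc tdLN.

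The remaining tumor leaders were smaller. In BF10 tumors the largest Trav10 clonotype was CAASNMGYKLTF with Trav10n and Traj9, at 40 UMIs, which was also listed in 10 other libraries. The largest Trav16 clonotype there was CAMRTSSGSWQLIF with Trav16n and Traj22, at 104 UMIs. In IL10-Fc tumors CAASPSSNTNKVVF with Trav10 and Traj34 had 69 UMIs, and in anti-CSF1R tumors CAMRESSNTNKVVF with Trav16n and Traj34 had 55. The largest tumor clonotypes were listed together with clonotypes 1 base away, as were some leaders of other tissues. Of the 18 Trav10-Traj30 clonotypes of the anti-CSF1R tumors, 15 had a CDR3 that differed from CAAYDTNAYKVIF by 1 base, and these 15 held 21 UMIs in all. Around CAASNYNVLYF there were 13 such clonotypes with 20 UMIs, and around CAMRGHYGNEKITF 10 with 16 UMIs. The largest Trav16 clonotype of the IL10-Fc spleen, at 43 UMIs, had 14 with 74 UMIs. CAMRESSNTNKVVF in the anti-CSF1R tumors had 0 and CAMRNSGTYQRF in the IL10-Fc tumors 2. Whether such neighbours are separate rearrangements or copying errors of the larger clonotype was not tested. They count as clonotypes in every share given here.

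In spleens and tdLNs no member had more than 198 UMIs. The largest Trav10 clonotype of each spleen library had 25 to 35 UMIs, and it was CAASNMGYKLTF in anti-CSF1R and BF10 and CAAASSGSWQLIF in control IgG and IL10-Fc, assigned to Trav10n in the first and to Trav10 in the second. In all 4 tdLN libraries the leading Trav10 clonotype encoded the same CDR3, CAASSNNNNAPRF with Traj43, by 2 different nucleotide sequences.
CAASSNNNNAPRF in the control IgG and IL10-Fc tdLN: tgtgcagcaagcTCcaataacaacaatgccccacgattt
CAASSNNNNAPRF in the anti-CSF1R and BF10 tdLN: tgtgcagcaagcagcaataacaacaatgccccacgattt
The first had 166 UMIs in control IgG and 198 in IL10-Fc, and the second 96 in anti-CSF1R and 35 in BF10. The first was listed in 5 libraries and the second in 6, none of them a tumor library. Among Trav16 clonotypes the tdLN leaders had 15 to 59 UMIs and differed between the libraries: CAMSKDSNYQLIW in control IgG, which was listed there alone, a Trav16n-Traj17 clonotype in IL10-Fc, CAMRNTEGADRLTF in anti-CSF1R and a Trav16n-Traj42 clonotype in BF10. The last was also the largest Trav16 clonotype of the BF10 spleen, with 161 UMIs there against 15 in the BF10 tdLN. The other spleen leaders of Trav16 had 24 to 43 UMIs, joined to Traj45 in control IgG, to Traj22 in IL10-Fc and to Traj30 in anti-CSF1R, where the CDR3 was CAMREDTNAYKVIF.

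Both families paired with nearly the whole J cluster, and the shares of their partners differed. The partners Trav10 used most were Traj23 with 7.0% ± 0.940 of its clonotypes (SD, n = 12), Traj31 with 6.95%, Traj22 with 6.06%, Traj30 with 5.77%, Traj26 with 5.76%, Traj21 with 4.76%, Traj49 with 3.83% and Traj12 with 3.66%. The partners Trav16 used most were Traj22 with 6.06% ± 0.611 (SD, n = 12), Traj23 with 4.90%, Traj37 with 4.54%, Traj30 with 4.37%, Traj49 with 4.13%, Traj31 with 3.95%, Traj48 with 3.82% and Traj27 with 3.77%. Traj30 with Trav10 ranged from 3.37% to 5.51% in 11 libraries and stood at 16.7% in the anti-CSF1R tumors, where it was 3.23% without the clonotypes 1 base from the largest.

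Shares of each J gene were compared with those among all other TRAC clonotypes of the same library, by an exact permutation test that flips signs over the 12 libraries, and called at an adjusted p under 0.05 and a ratio of at least 1.5 either way. Of all 779 pairs of a V family and a J gene, 35.8% were called. Of 41 J genes, 11 were called for Trav16, or 26.8%, and 7 for Trav10, or 17.1%, so both shares were below that of all pairs. Pairs called higher made up 11.3% of all pairs and pairs called lower 24.5%.

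The 7 J genes called higher with Trav16 were Traj58, Traj57, Traj53, Traj52, Traj50, Traj48 and Traj45, all of them in the part of the J cluster nearest to the V genes. Traj50 took 2.70% of Trav16 clonotypes and 1.29% of the rest, a ratio of 2.09, with 2.09% to 3.43% in single libraries and higher in 12 of 12 (exact permutation test, adjusted p = 0.00149). Traj53 followed at a ratio of 1.84, Traj57 at 1.72, Traj58 at 1.67 and Traj45 at 1.56. The 4 called lower were Traj13 at a ratio of 0.632, Traj28 at 0.477, Traj35 at 0.454 and Traj7 at 0.301. Weighted by UMIs, the Traj28 ratio was 1.52 in place of 0.477 and was no longer called. Under the same weighting Traj53 (exact permutation test, adjusted p = 0.0812), Traj57 (adjusted p = 0.0681) and Traj52 (ratio 1.48) were not called either, while the other 7 were.

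With Trav10 the J genes called lower were Traj58, Traj57, Traj56, Traj35, Traj16 and Traj5, spread over the cluster. Traj5 took 0.274% of Trav10 clonotypes and 0.669% of the rest, a ratio of 0.410, and Traj58 took 0.399% and 0.956%, a ratio of 0.417. Both were lower in 12 of 12 libraries (exact permutation test, adjusted p = 0.00149). Traj56 stood at a ratio of 0.545, Traj57 at 0.562 and Traj35 at 0.617. Traj2 was the only J gene called higher, at 1.14% against 0.678%. Its share was 3.70% in the anti-CSF1R tumors, where Trav10 had 108 clonotypes, and 0.536% to 1.14% in the others, and without that library its ratio was 1.33 and it was not called. It was not called by UMIs either, at a ratio of 1.22. Without that library 4 J genes were called for Trav10, namely Traj58, Traj57, Traj56 and Traj5, and 13 for Trav16. In the 8 spleen and tdLN libraries alone, Traj57 was not called with Trav10 (ratio 0.714, exact permutation test, adjusted p = 0.0604). Traj16 (ratio 0.801) and Traj2 (ratio 1.36) were not called there either.

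**Figure D2:**
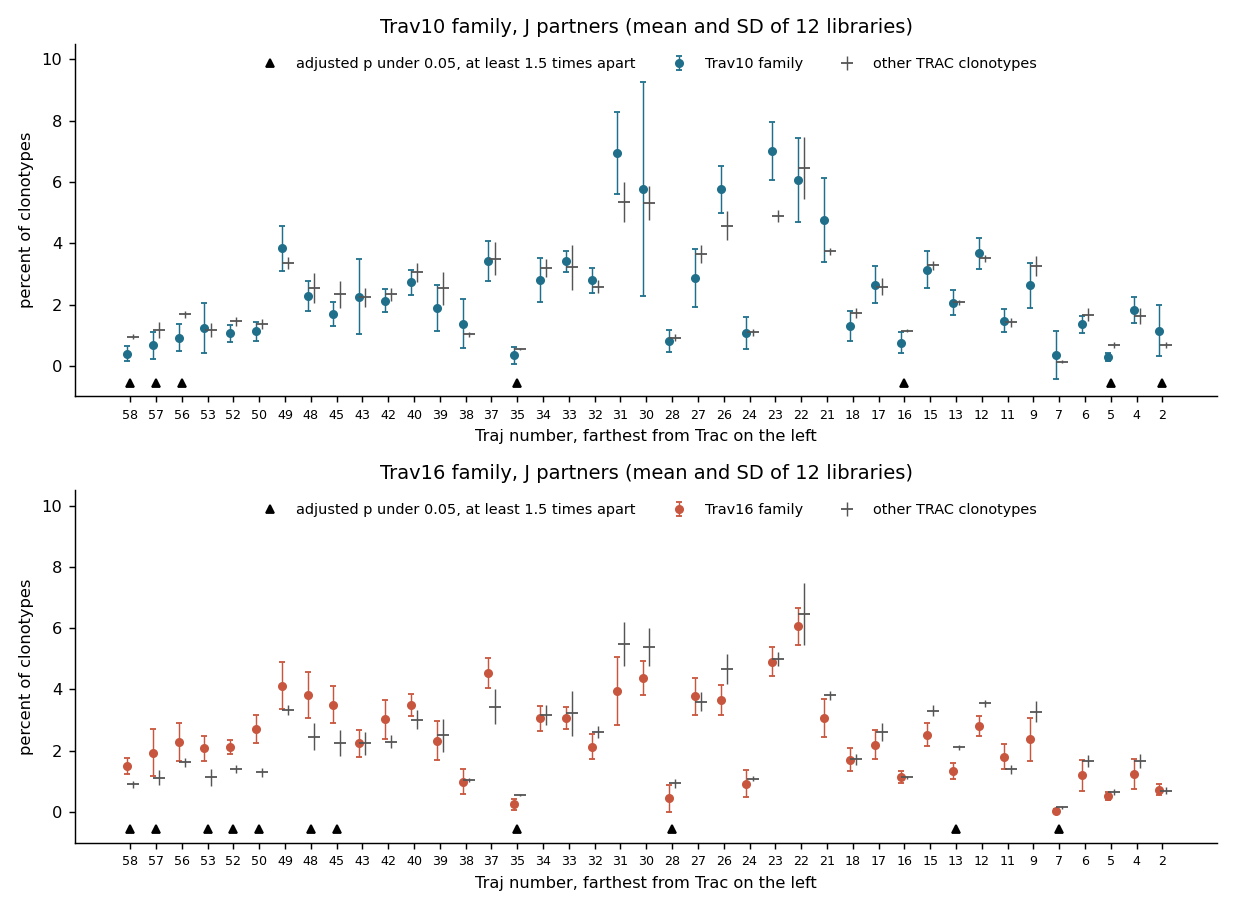
Percent of clonotypes joined to each of 41 Traj genes in the Trav10 family (upper) and the Trav16 family (lower), as mean and SD of 12 libraries, beside all other TRAC clonotypes of the same libraries (horizontal marks), with triangles at the genes called. On the left, farthest from Trac, Trav16 lies above the rest from Traj58 to Traj45, while Trav10 lies below the rest at Traj58, Traj57 and Traj56.

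The copies within a family differed in the position of their J partners, and in opposite senses. The position was taken as the distance of the J gene from the constant gene Trac, which ran from 2.69 kb to 63.2 kb over the J genes listed. Clonotypes of Trav16, the copy nearest to the J cluster at 477 kb from Trac, had partners at a mean of 26.1 kb ± 0.999 (SD, n = 12), and those of Trav16d-dv11 or Trav16n, at 1173 kb and 869 kb, at 35.6 kb ± 0.544. The distal copies thus had partners 9.48 kb farther from Trac (12 of 12 libraries, exact permutation test by sign flips, adjusted p = 0.000488, the smallest that 12 libraries can give). In the Trav10 family it was the nearest copy, at 714 kb, whose partners lay farther from Trac, at 32.0 kb ± 0.530, against 26.1 kb ± 1.47 for Trav10d or Trav10n at 1409 kb and 1098 kb (12 of 12 libraries, exact permutation test, adjusted p = 0.000488).

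The assignments that named 1 gene gave the same order. Trav10n alone stood at 26.7 kb and Trav10d or Trav10n unresolved at 25.5 kb, both below Trav10, while clonotypes unresolved among all 3 copies stood between them at 29.8 kb. Trav16n alone stood at 31.3 kb and Trav16d-dv11 or Trav16n unresolved at 39.4 kb. As wholes, the Trav16 family lay 3.12 kb farther from Trac than the TRAC clonotypes outside both families and the Trav10 family differed from them by -0.795 kb (12 of 12 libraries each, exact permutation test, adjusted p = 0.000488). Since the copies are told apart by 2 to 5 bases, these values describe the deposited assignments. Other families and their copies were not compared in this way, so how common such differences are is not known.

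**Figure D3:**
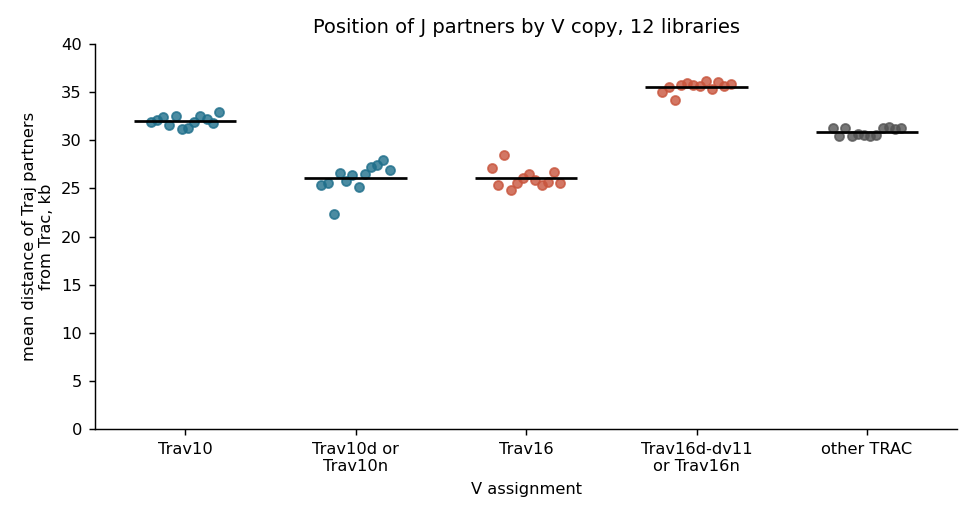
Mean distance in kb of the Traj partners from Trac, 1 point per library (12 per assignment, in no order) with the mean as a line. Trav10 lies above its d and n copies at 32.0 kb against 26.1 kb, and Trav16 lies below its d and n copies at 26.1 kb against 35.6 kb.

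The CDR3 of Trav16 clonotypes was longer than average and that of Trav10 clonotypes slightly shorter. Trav16 CDR3s had a mean of 14.9 amino acids, counted from the cysteine to the last residue, in every library between 14.8 and 15.0, against 13.5 in all other TRAC clonotypes, a difference of 1.37 ± 0.0353 (SD of the 12 within-library differences). Trav10 CDR3s had a mean of 13.4, between 13.4 and 13.5 in single libraries, against 13.6 in the rest, a difference of -0.187 ± 0.0660. Both differences had 1 sign in 12 of 12 libraries (exact permutation test, adjusted p = 0.000663). Nearly every family differed from the rest in this test (94.7% of 19), so the sizes say more than the calls: Trav16 was the 2nd longest of 19 and Trav10 the 15th. Lengths of 14 to 16 residues made up 24.6%, 33.5% and 21.7% of Trav16 clonotypes, and lengths of 12 to 14 made up 15.9%, 29.5% and 31.1% of Trav10 clonotypes.

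**Figure D4:**
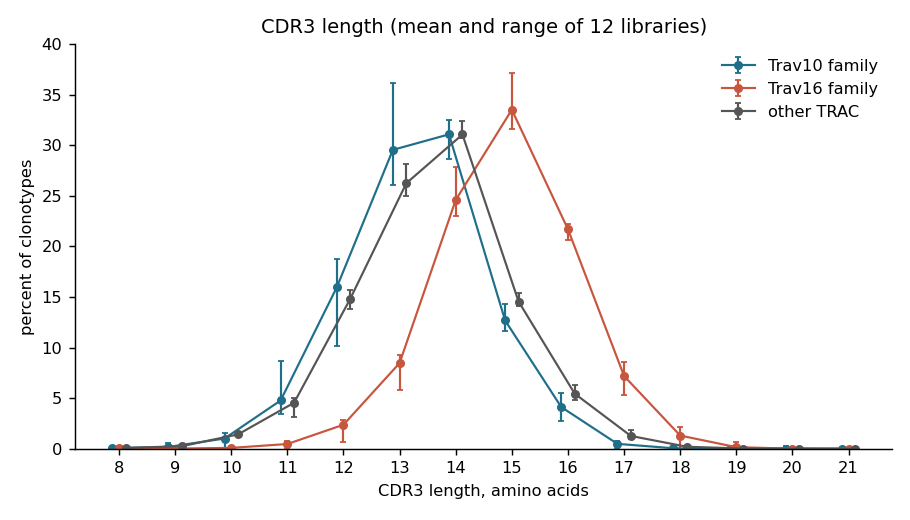
Percent of clonotypes by CDR3 length in amino acids for the Trav10 family, the Trav16 family and the TRAC clonotypes outside both, as mean of 12 libraries with bars from the lowest to the highest library. The Trav16 curve peaks at 15 residues with 33.5%, and the Trav10 curve at 14 with 31.1%, the same length as the rest.

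The 2 families differed more in the bases kept from the V gene than in those kept from the J gene. Trav16 clonotypes kept 14.9 bases that matched their germline V end, out of 17, and Trav10 clonotypes 11.2 out of 13, while the TRAC clonotypes outside each kept 10.7 and 10.9 (89.5% of families differed from the rest). From the J gene Trav16 kept 26.6 bases and Trav10 25.5, against 25.9 and 26.0 (57.9% of families differed). CDR3s that began with CAMRE, as the Trav16 exon reads, made up 71.7% of Trav16 clonotypes (69.4% to 77.5%) and 0.0575% of the rest. CDR3s that began with CAAS made up 65.0% of Trav10 clonotypes (62.4% to 67.9%) and 16% of the rest, and Trav14, set beside them for comparison, had 62.9%. These starts are written in the germline and are given as a description. Bases that matched neither end numbered 3.20 per Trav16 clonotype and 3.62 per Trav10 clonotype, against 3.97 and 3.95 in the rest (lower in 12 and in 11 of 12 libraries, exact permutation test, adjusted p = 0.000843 and 0.00133, in a test that 84.2% of families passed). Clonotypes with no such base made up 12.5% of Trav16 against 9.88% (adjusted p = 0.00116, exact permutation test) and 9.73% of Trav10 against 10% (adjusted p = 0.631, exact permutation test), where 68.4% of families differed. Without the anti-CSF1R tumors the Trav10 value was 9.27% against 9.92%, lower in 8 of 11 libraries (exact permutation test, adjusted p = 0.0396). Added bases that match the germline by chance are counted as germline, and a longer germline end leaves more room for such matches. Matching ran inward from each end of CDR3 and stopped at the first base that differed. A base changed within a germline stretch, by a copying error for example, therefore leaves every base between it and the joint unmatched. The numbers of unmatched bases and the shares with none are thus limits in neither direction.

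Trav16 clonotypes were found in more than 1 library more often than others, and Trav10 clonotypes were not shown to be. Of the Trav16 clonotypes of a library, 44.3% ± 3.33 (SD, n = 12; 40.5% to 52.3%) were listed in at least 1 other library, against 34.5% ± 1.38 of the rest, in 12 of 12 libraries (exact permutation test, adjusted p = 0.000843). This placed it 2nd of 19 families, in a test that 89.5% of families passed. By CDR3 amino acids with V family and J gene, the excess of Trav16 was 3.72 percentage points in place of 9.84 (74.3% against 70.6%). Of the Trav10 clonotypes 35.4% ± 1.97 were, against 34.9% ± 1.54, with 8 libraries higher and 4 lower (exact permutation test, adjusted p = 0.443). The paper took tumors, tdLNs and spleens from the treated mice, so libraries of 1 treatment may share mice. A clone spread over tissues of 1 mouse then counts as shared, as does a rearrangement made again in another mouse. Sharing also rests on how finely a clonotype is named. When only the V family was asked to match in place of the copy, the shares were 57.2% for Trav16 and 51.3% for the rest, and 49.7% for Trav10 and 51.6% for the rest, so that Trav10 then lay below (exact permutation test, adjusted p = 0.000714 and 0.0169). Trav14 and Trav9, set beside them, stood at 41.4% and 39.2% when the copy had to match.

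Among distinct clonotypes, 13266 of 15694 Trav10 and 13189 of 16520 Trav16 were listed in 1 library. In at least 10 of the 12 libraries there were 21 Trav10 clonotypes, with a mean of 0.810 unmatched bases and none at all in 57.1%, and 31 Trav16 clonotypes, with 0.452 and 61.3%. Clonotypes of 1 library had 4.16 and 4.12 unmatched bases. The libraries differ in depth, and a clonotype with more UMIs is more easily listed. Distinct clonotypes of other families were not counted in this way. The clonotype of each family listed in all 12 libraries and 3 CDR3 sequences from 11 are printed with the unmatched bases in capitals.
Trav10-Traj49, 12 libraries (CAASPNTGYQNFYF): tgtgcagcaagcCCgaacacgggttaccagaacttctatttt
Trav10-Traj22, 11 libraries (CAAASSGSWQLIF): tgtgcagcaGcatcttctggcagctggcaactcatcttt
Trav10 or Trav10n with Traj9, 11 libraries each (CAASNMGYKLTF): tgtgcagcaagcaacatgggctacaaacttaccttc
Trav16n-Traj22, 12 libraries: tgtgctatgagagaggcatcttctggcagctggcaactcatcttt
Trav16 or Trav16n with Traj12, 11 libraries each: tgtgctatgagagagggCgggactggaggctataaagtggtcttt
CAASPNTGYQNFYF had 85 UMIs over the 12 libraries, with 2 to 21 in each, and its highest share was 0.0888% of TRAC UMIs. The Trav16n-Traj22 clonotype had 270 UMIs, with 3 to 43 in each, of which 122 were in spleens, 86 in tumors and 62 in tdLNs. Every base of it can be read from the Trav16n and Traj22 germline ends.

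The same nucleotide sequence was listed under 2 copies in both families. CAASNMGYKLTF had 210 UMIs as Trav10n and 123 as Trav10, and the Traj12 clonotype printed above had 159 UMIs as Trav16n and 114 as Trav16. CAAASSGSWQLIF with Trav10 had 218 UMIs. The other widely listed Trav10 clonotypes, in 11 libraries each, were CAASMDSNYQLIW with Traj33, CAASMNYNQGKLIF and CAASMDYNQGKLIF with Traj23, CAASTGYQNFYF and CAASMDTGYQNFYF with Traj49 and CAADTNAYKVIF with Traj30, at 70 to 159 UMIs. Of the 9 Trav10 clonotypes in 11 libraries among the 10 most widely listed, 8 were missing from the anti-CSF1R tumors, the library with the fewest UMIs. The other Trav16 ones were a second Traj22 clonotype, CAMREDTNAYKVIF with Traj30, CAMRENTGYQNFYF with Traj49, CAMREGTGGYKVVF with Traj12, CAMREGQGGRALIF with Traj15, and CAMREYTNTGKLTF and another clonotype with Traj27, at 46 to 177 UMIs.

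By amino acid sequence and J gene, 26 of 8790 Trav16 CDR3s and 3 of 9332 Trav10 CDR3s were listed in all 12 libraries. The anti-CSF1R tumors, with 151 Trav16 and 108 Trav10 clonotypes, limit these counts. Other families were not counted in this way, so how common such listing is is not known. The pair of Trav16 CDR3s with the most nucleotide sequences were both joined to Traj22, encoded by 12 sequences with 441 UMIs and by 11 with 497. The 3 of Trav10 were a Traj12 CDR3, encoded by 10 nucleotide sequences with 139 UMIs, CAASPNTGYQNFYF by 6 with 138 and a Traj52 CDR3 by 3 with 76.

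**Figure D5:**
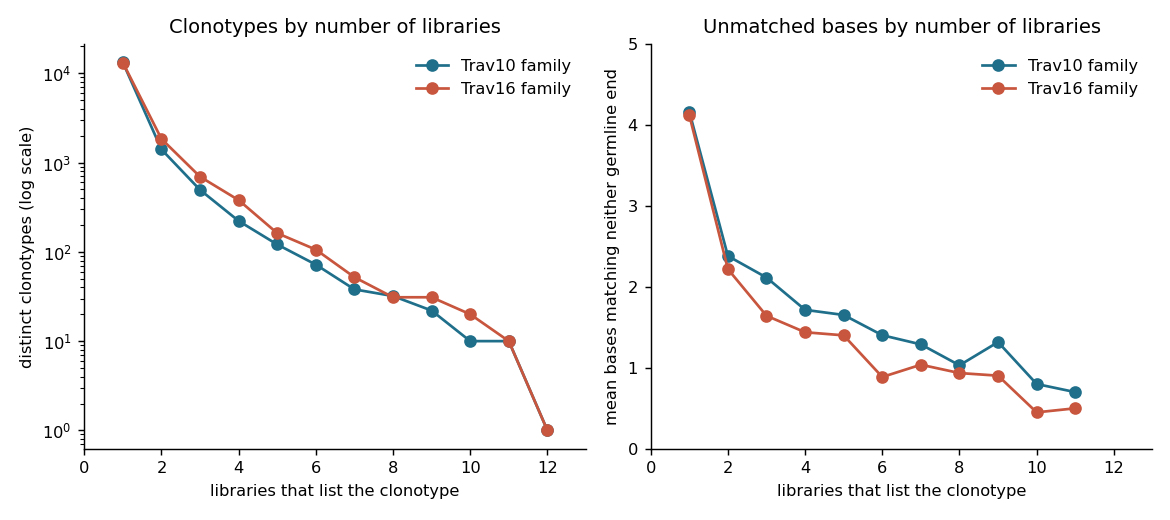
Left, number of distinct clonotypes (log scale) by the number of the 12 libraries that list them; right, their mean number of CDR3 bases that match neither germline end, for numbers of libraries with at least 10 clonotypes. Both families fall from 13266 and 13189 clonotypes in 1 library to 1 in 12, and the unmatched bases fall from 4.16 and 4.12 to 0.700 for Trav10 and 0.500 for Trav16 in 11 libraries.

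Some of the large tumor clonotypes were also listed in the tdLN and in the spleen. Of the 20 largest Trav10 clonotypes of a tumor library, 14 in IL10-Fc, 14 in BF10, 3 in control IgG and 4 in anti-CSF1R were listed in the tdLN library of the same treatment. Of the 20 largest Trav16 clonotypes, 16 in IL10-Fc, 10 in BF10, 7 in control IgG and 2 in anti-CSF1R were. The spleen of the same treatment listed 15 in IL10-Fc, 12 in BF10, 5 in control IgG and 5 in anti-CSF1R for Trav10, and 16, 16, 6 and 7 for Trav16. The tdLN libraries of the other treatments listed 10 to 14 of the 20 Trav10 clonotypes of IL10-Fc tumors, 12 to 14 of BF10, 5 to 7 of control IgG and 4 to 9 of anti-CSF1R. For Trav16 they listed 9 to 14, 12 to 14, 3 to 6 and 3 to 10, in the same order. The tdLN of the same treatment thus stood above the others in some tumors and below them in others. The spleens of the other treatments listed 4 to 14 for Trav10 and 4 to 17 for Trav16. The libraries differ in depth, and its part in these counts was not tested.

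Members were larger clonotypes than average in the Trav10 family. Trav10 clonotypes had 1 UMI in 37.3% of cases, against 45.3% of the rest (lower in 11 of 12 libraries, exact permutation test, adjusted p = 0.0106, passed by 57.9% of families), which was the lowest of 19 families. In Trav16 this share was 42.6% against 45.1% (lower in 11 of 12 libraries, exact permutation test, adjusted p = 0.0106). UMIs per clonotype were higher than in the rest for Trav10 in 11 of 12 libraries, at a mean of 3.87 against 3.23 (exact permutation test, adjusted p = 0.00309, passed by 31.6% of families), and were not shown to differ for Trav16, at 3.10 against 3.27 (higher in 10 of 12 libraries, exact permutation test, adjusted p = 0.9995). The anti-CSF1R tumors set much of the size of the Trav10 difference and the sign of the Trav16 difference. There Trav10 had 14.1 UMIs per clonotype against 9.53, and Trav16 had 5.50 against 10.01. Without that library Trav10 lay 0.281 UMIs above the rest in place of 0.639, and Trav16 lay 0.220 above in place of -0.174, each higher in 10 of 11 libraries (exact permutation test, adjusted p = 0.00488 for both). Fewer cells of a clone and less RNA per cell cannot be told apart in these counts.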

How the data were processed

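Total RNA of CD8 T cells was made into UMI-tagged libraries with the QIAseq immune repertoire kit, and the authors sorted reads into clonotypes in the vendor's portal. The authors deposited UMI counts per clonotype, not normalized, at minimums of 3 to 7 reads, and a fraction, the UMIs of a clonotype over the total of its library and chain. The germline reference and error correction are not given in the sources used here; the submitters' processing notes name mm10. UMIs with at least 3 reads were used as listed, with samples grouped by their titles. Shares of the 21 TRAV families were compared between tissues by exact permutation (4 libraries each) and families with the rest by sign flips over 12 libraries, two-sided, with Benjamini-Hochberg adjustment over all families (and J genes). Positions of J partners were compared by sign flips for these 2 families alone, and adjusted over those comparisons. Within a library, family and rest share depth. Nothing states that libraries are biological replicates beyond 3 mice mixed, so p-values measure the spread between libraries. The tests treat libraries as independent, though those of 1 treatment may share mice. CDR3 bases were matched to GRCm38 with GENCODE M21, which covered 98.1% of TRAC clonotypes. The named items are the V assignments, the 8 most used J genes and up to 5 called with the largest and smallest ratios, the largest clonotype per library and the 10 listed most widely. The families and lists were chosen with earlier results of these data known. Steps were tested on simulated data. Exon identity was computed with Biopython 1.88, tables with pandas 2.3.3 and numpy 2.4.6, intervals with scipy 1.17.1 and plots with matplotlib 3.10.9, all under Python 3.11.15.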

Additional observations from a re-analysis of the deposited data

Results flagged for a closer look

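The share of TRAC UMIs of Trav10 in the anti-CSF1R tumors, 6.44%, lay apart from the other 3 tumor libraries, at 3.72% to 4.08%. Each tumor library had its own treatment, so how often such a gap arises by chance cannot be said. Of the Trav10 UMIs there, 59.2% belonged to 1 clonotype, and the share without it was 2.73%.

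Trav16d-dv11, the copy that can also join delta chains, was listed with the delta constant gene (TRDC), outside the alpha chain comparisons, with 241 UMIs in 128 clonotypes of 37117 TRDC UMIs. It had 11 UMIs in the tumor library of control IgG, 16 in anti-CSF1R and 20 in BF10. The 11 and the 16 UMIs were 1 clonotype each. In spleens it had 22 UMIs in control IgG, 15 in anti-CSF1R and 13 in BF10. In tdLNs it had 23 in control IgG, 47 in IL10-Fc, 26 in anti-CSF1R and 43 in BF10. The libraries held 873 to 7866 TRDC UMIs. By share of these, in the same order, the tumors stood at 0.666%, 1.46% and 1.35% and the spleens at 0.917%, 0.703% and 0.407%. The tdLNs stood at 0.474%, 0.598%, 0.580% and 0.734%. The tumor and spleen libraries of IL10-Fc, with 2 and 3 UMIs, were not above the limit of 3. No Trav10 gene was listed with TRDC, which allows a share of up to 0.00808%.

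Shares of TRAC UMIs in treated libraries differed from control IgG in opposite directions in 2 tissues. An effect of treatment was not tested, since each value is 1 library against the control IgG library of its tissue. For Trav10 the difference from control IgG in tumors was 0.103 percentage points in IL10-Fc, 2.72 in anti-CSF1R and 0.365 in BF10, and in spleens -0.0507, -0.174 and -0.0427. The ratios to control IgG had counting intervals that included 1 for Trav10 in the IL10-Fc tumors and in the IL10-Fc and BF10 spleens. For Trav16 the difference was -1.84, -3.6 and -1.32 in tumors and 0.0621, 0.274 and 0.473 in tdLNs, where the interval of IL10-Fc included 1. Some of these directions rested on single clonotypes: without the largest clonotype of each library, Trav10 held 2.73% in the anti-CSF1R tumors against 3.05% in control IgG, and Trav16 held 5.72% in the BF10 tumors against 5.51%.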

How the results depend on the processing

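The labels carry no replicate numbers, so libraries were paired by treatment. In that paired test, exact permutation by sign flips over 4 treatments, p cannot go below 0.125, the value for tdLN against spleen in both families. Leaving out libraries or pairing them cannot make ranges that lie apart overlap, so these alternatives do not bear on the separation of tdLN and spleen. The other alternatives were at least 7 reads, at least 2 UMIs and V assignments of 1 gene. To these came clonotypes reduced to the smallest TRAC UMI total, or UMIs without the largest clonotypes. In all of these the ranges of Trav10 stayed apart, by clonotypes and by UMIs. Those of Trav16 did so too, except with UMIs of at least 7 reads. There they overlapped (differences -0.437 and -0.830 percentage points by clonotypes and by UMIs). The cause was not tested.

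The small differences between tumor and spleen changed sign. For Trav10 clonotypes it was -0.0354 with at least 7 reads and -0.206 with at least 2 UMIs, and leaving out 1 library gave -0.00509 to 0.337; for Trav10 UMIs it was -0.224 without the largest clonotype of every family, and -0.233 to 0.673 with 1 library left out. For Trav16 UMIs it was -0.0586 with at least 2 UMIs, and -0.473 to 0.728 with 1 library left out. Leaving out the anti-CSF1R tumor turned both Trav10 values; the control IgG tumor (-0.473), the BF10 tumor (-0.0338) or the anti-CSF1R spleen (-0.134) turned that of Trav16.

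By UMIs, the log2 ratios to control IgG tumors were 0.040 in IL10-Fc, 0.79 in anti-CSF1R and 0.14 in BF10 for Trav10, and -1.02 in anti-CSF1R for Trav16. With at least 2 UMIs they were 0.15 for Trav10 and -0.26 for Trav16 in BF10. At a fold of at least 2, 2 J genes were called for Trav10 and 4 for Trav16, and without the anti-CSF1R tumor 4 and 13, an alternative chosen after seeing the data. The Traj28 ratio with Trav16 was 1.52 by UMIs. The difference in UMIs per clonotype of Trav16 from the rest was 0.220 without the anti-CSF1R tumor, chosen after seeing the data.

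Trav10 sharing above the rest was -3.46 percentage points by CDR3 amino acids and -1.90 by V family, the latter chosen after seeing the data, 1.23 when thinned to 23650 UMIs (exact permutation test, adjusted p = 0.0111) and 1.29 in the 8 spleen and tdLN libraries (adjusted p = 0.0246).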
